A study of Mus musculus with 36 samples.

Results

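The genes described here encode the machinery that copies DNA in S phase, measured in mouse hearts from mid-gestation to old adulthood. The list named 43 genes by their known role. By gene ID 42 of them had at least 1 probe set, with 94 probe sets between them, out of 20701 genes and 45101 probe sets on the array. *Chaf1a* was the member left without a probe set. Each gene was read from its probe set with the highest mean over all arrays.

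Hearts came from OF1 mice, an outbred strain, at 12 stages with 3 arrays each, 36 in all. Embryonic hearts covered each day between E10.5 and E19.5, young adult hearts were taken at 10 weeks and old adult hearts at 14 months per the labels or 10 months per the study's methods. At E10.5 and E11.5 the 3 arrays held hearts of mixed sex, and each stage after them had a female, a male and a mixed array. The labels name no treatment or transgene, and the study's methods describe a female pup, a male pup and a replicate combining male and female hearts per time point, with mixed replicates alone at E10.5 and E11.5. The extraction protocol in the labels named liver, so the tissue was checked: the 5 hepatocyte markers had a mean of 3.32 to 4.02 over the E10.5, E19.5 and adult arrays, whereas 5 cardiomyocyte markers, such as *Tnnt2*, had 10.39 to 11.41.

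Before a cell divides, the origin recognition complex, *Cdc6* and *Cdt1* load the Mcm2-7 ring onto origins. In S phase *Cdc45* and the GINS complex turn that ring into a moving helicase, polymerases copy both strands around the *Pcna* clamp, and *Fen1* and *Lig1* join the fragments of the lagging strand. Ribonucleotide reductase and thymidine enzymes supply the nucleotides. Heart muscle cells divide in the embryo and largely leave the cell cycle around and after birth, and many of these genes are known targets of E2F transcription factors.

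As these genes are often described as sharing promoter elements, the RefSeq promoter windows (assembly GRCm38.p6, 250 bases before to 50 bases after the start of each gene) were searched on both strands for an E2F-type motif spelled TTTNNCGC, for CCAAT and for the CHR element spelled TTTGAA. A window was given for 33 members. The E2F-type motif was found in 13 of 33 members (39.4%), against 5.93% of all 27025 genes with a window. CCAAT was found in 20 members (60.6%), against 41.1% of all genes, and TTTGAA in 3 members (9.09%), against 20.2%. No motif contains another, and base composition was not matched between members and other genes. A match in letters is a description of the sequence and not a shown binding site. In 6 of the 13 members the E2F-type match lay only at or after the start. The other 7, each with a match wholly before the start, are all shown. On the brightest probe sets their E10.5 differences from young adult ran from 3.35 in *Mcm5* to 0.20 in *Orc1*. The 180 bases before the start are given with E2F-type matches in capitals. In *Rrm2*, which had the largest change of all members and no E2F-type match in its window, capitals mark CCAAT.
Cdc6: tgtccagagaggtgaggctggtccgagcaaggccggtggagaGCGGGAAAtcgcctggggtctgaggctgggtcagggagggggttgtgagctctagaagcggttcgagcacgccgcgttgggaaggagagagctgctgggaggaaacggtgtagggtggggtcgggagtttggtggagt
Orc1: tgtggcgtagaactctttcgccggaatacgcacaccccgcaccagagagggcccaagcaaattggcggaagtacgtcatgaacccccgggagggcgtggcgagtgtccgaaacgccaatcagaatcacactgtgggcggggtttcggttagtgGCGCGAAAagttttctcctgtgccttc
Mcm5: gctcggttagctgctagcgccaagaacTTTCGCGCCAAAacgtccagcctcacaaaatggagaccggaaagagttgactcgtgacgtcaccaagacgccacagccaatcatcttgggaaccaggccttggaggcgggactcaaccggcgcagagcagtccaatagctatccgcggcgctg
Mcm6: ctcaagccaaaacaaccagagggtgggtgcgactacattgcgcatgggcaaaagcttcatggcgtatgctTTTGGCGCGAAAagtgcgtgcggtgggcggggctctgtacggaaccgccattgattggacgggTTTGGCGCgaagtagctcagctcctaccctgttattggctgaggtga
Mcm7: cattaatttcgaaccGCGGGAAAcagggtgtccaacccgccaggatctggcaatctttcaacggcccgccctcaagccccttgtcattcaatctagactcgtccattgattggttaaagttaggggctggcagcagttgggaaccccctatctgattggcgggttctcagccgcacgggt
Pola1: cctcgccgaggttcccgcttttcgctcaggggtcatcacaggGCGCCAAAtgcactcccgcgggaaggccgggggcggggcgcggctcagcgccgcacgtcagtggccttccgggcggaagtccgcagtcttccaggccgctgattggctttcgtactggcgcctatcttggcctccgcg
Rfc3: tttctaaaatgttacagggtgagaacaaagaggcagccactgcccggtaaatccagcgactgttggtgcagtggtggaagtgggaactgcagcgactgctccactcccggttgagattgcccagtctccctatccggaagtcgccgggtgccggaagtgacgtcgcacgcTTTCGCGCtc
Rrm2: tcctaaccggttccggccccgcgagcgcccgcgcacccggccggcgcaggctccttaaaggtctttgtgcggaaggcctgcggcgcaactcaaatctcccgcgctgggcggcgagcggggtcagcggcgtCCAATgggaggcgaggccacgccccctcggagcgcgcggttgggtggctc
These stretches are, in the same order, chr11:98907971-98908150 (plus strand), chr4:108579274-108579453 (plus), chr8:75109329-75109508 (plus), chr1:128359706-128359885 (minus), chr5:138171884-138172063 (minus), chrX:93632156-93632335 (minus), chr5:151651209-151651388 (minus) and chr12:24708074-24708253 (plus). In *Mcm5* and *Mcm6* a match on either strand overlaps in a single run of capitals, beginning 153 and 110 bases before the start, and *Mcm6* holds a further match 47 bases before it. *Mcm7* has another window with no E2F-type match.

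Replication genes were highest in the youngest hearts and lower in adult hearts as a group. All values are log2 RMA intensities, so a difference of 1 is a doubling. At E10.5, 27 of 42 members were called higher than in young adult hearts (adjusted p under 1e-05, log2 difference above 2, that is over 4-fold, and a mean above 5 at a stage), where 5.14% of all genes were. The median member difference was 2.70, against -0.21 over all genes. No member was lower, where 38.6% of all genes were lower at an adjusted p under 0.05. At an adjusted p under 0.05 alone, 41 of 42 members were higher at E10.5, against 28.5% of all genes. In 41 members all 3 E10.5 arrays lay above all 3 young adult arrays, and E10.5 was the stage with the highest mean in 39 members. All 42 had a mean above 5 at some stage, *Tyms* by the smallest margin with 5.00 at E10.5. In whole hearts, fewer dividing cells and less RNA per cell cannot be told apart.

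Fewer members were called above young adult hearts at later embryonic ages. It was 22 at E11.5, against 4.27% of all genes, 22 at E12.5 (4.02%), 16 at E13.5 (3.37%), 15 at E14.5 (3.25%) and 14 at E15.5 (2.91%). It was 14 at E16.5, against 2.66% of all genes, 8 at E17.5 (1.85%), 6 at E18.5 (1.79%) and finally 4 (1.02%) in E19.5 hearts. These comparisons share the 3 young adult arrays. The mean over the 42 members, as a difference from each member's young adult mean, was 2.50 ± 0.11 at E10.5 (SD, n = 3), 1.51 ± 0.14 at E15.5 and 0.95 ± 0.09 in E19.5 hearts. In old adult hearts it lay between -0.02 and 0.02 in the 3 arrays, inside the young adult range of -0.06 to 0.04. No embryonic array overlapped an adult array, the closest being the mixed E18.5 array with 0.85.

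**Figure D1:**
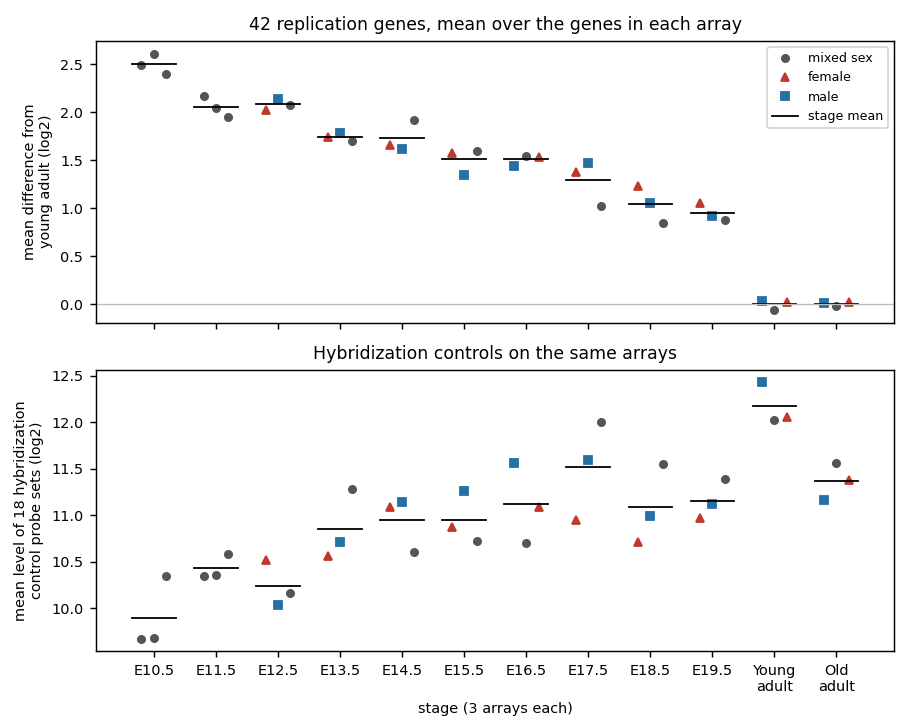
The upper plot shows, for each of the 36 arrays, the mean over 42 replication genes of the log2 difference from the gene's young adult mean, by stage, with horizontal lines for stage means. It falls from 2.50 in E10.5 hearts to 0.95 in E19.5 hearts and is near 0 in both adult groups. The lower plot shows the mean log2 level of the 18 hybridization control probe sets on the same arrays, which is lowest at E10.5 and highest in young adult hearts.

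The array controls differed between stages, and the hybridization controls ran against the members' mean inside embryonic stages. The hybridization controls, labelled bacterial and phage RNAs added in fixed amount, had a mean of 9.90 at E10.5 (lowest 9.68, highest 10.35), 11.16 in E19.5 hearts and 12.17 in young adult hearts (12.03 to 12.43). In 10 of the 10 embryonic stages the array with the highest control level was also the array with the lowest member mean, and in 7 of them the array with the lowest control level had the highest member mean. In young adult hearts the male array was highest in both. At E17.5 the mixed array had a control level of 12.01 and a member mean of 1.02, while the female and male arrays had 10.95 and 11.60 with 1.37 and 1.47. With the control level as a covariate, 17 members in place of 27 were called at E10.5, 35 were higher at an adjusted p under 0.05, and the median difference was 1.97. All 42 differences kept a positive sign with this covariate. Centring the arrays on their median moved the E10.5 difference of all probe sets by -0.53 and left 22 members called. The difference between the 3′ and 5′ probe sets of beta actin, a measure of RNA integrity and labelling, averaged 2.86 at E10.5, 4.06 in E19.5 hearts and 2.83 in young adult hearts. That of *Gapdh* ran from 2.19 to 3.95 at E10.5, from 3.72 to 4.13 on E19.5 and from 1.39 to 2.25 in young adult hearts. A further set of controls, 27 poly-A control probe sets, averaged 5.49, 5.49 and 6.32 in the E10.5 arrays. In the young adult arrays they averaged 8.24, 7.84 and 8.39, and their level was not fitted as a covariate. The part of all these controls in the results was not tested beyond the fits given.

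**Figure D2:**
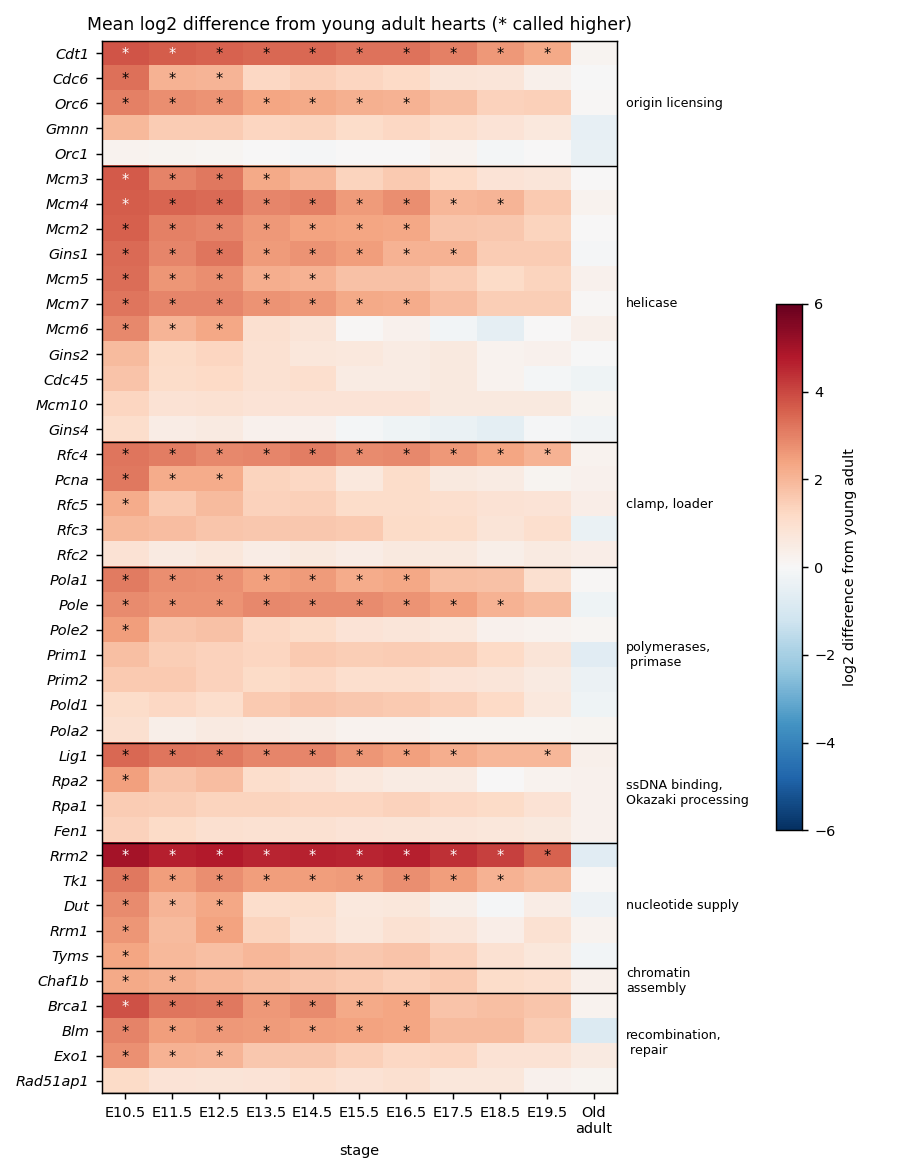
Colours show the log2 difference of each stage mean from young adult for 42 replication genes, grouped by role and sorted by the E10.5 difference. Asterisks mark genes called higher. *Rrm2*, *Cdt1*, *Rfc4* and *Lig1* are called at E19.5, while 15 genes are called at no stage, and the old adult column holds no call.

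Origin licensing genes, which prepare origins before S phase, held both a strong and a flat member. Of 5, 3 were called at E10.5 and 1 at E19.5. *Cdt1*, which brings the Mcm ring to origins, read 9.85, 9.89 and 10.06 in the 3 arrays of E10.5, 8.50, 8.33 and 8.59 at E19.5 and then 6.32, 6.19 and 6.02 in young adult hearts. The groups did not overlap, and the *Cdt1* difference was 3.76 at E10.5 (SE 0.140, adjusted p = 4.9e-20) and 2.29 at E19.5 (adjusted p = 4.9e-14). *Orc1*, the largest subunit of the origin recognition complex, read 4.95, 5.31 and 5.92 at E10.5 and 5.30, 5.27 and 4.99 in young adult hearts. These overlapped, and its difference of 0.20 (SE 0.180) did not pass the test (adjusted p = 0.32). A dimmer *Orc1* probe set differed by 1.24 (adjusted p = 3.2e-07), so the probe sets of this gene disagree. *Orc6*, another subunit, had means of 7.38, 5.81 and 4.36 in E10.5, E19.5 and young adult hearts. *Cdc6*, the loader that works with *Cdt1*, had 5.57, 2.58 and 2.26 at those stages. *Gmnn*, the inhibitor that keeps *Cdt1* from relicensing origins, had 9.35, 8.04 and 7.39, and its young adult arrays were widely spread (SD 0.72).

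Of the helicase genes 7 of 11 were called at E10.5, a share like that of all members, and 0 at E19.5 under the strict limits, where 7 were still higher at an adjusted p under 0.05 (17.0% of all genes were). Their median difference was 3.23 at E10.5 and 0.71 at E19.5. *Mcm3*, a subunit of the ring, read 8.98, 9.10 and 8.68 at E10.5, 6.29, 6.0 and 5.62 at E19.5 and then 5.11, 5.30 and 5.37 in young adult hearts. The *Mcm3* difference was 3.66 at E10.5 (SE 0.261, adjusted p = 3.0e-13). At E19.5 it was 0.71 (adjusted p = 0.038), but -0.11 with the hybridization control covariate. Its next brightest probe sets gave 0.34 (adjusted p = 0.16) and 0.14 (adjusted p = 0.76). Its dimmer ones gave 0.55 (adjusted p = 0.0069) and 0.27 (adjusted p = 0.26). *Gins4*, a GINS subunit, had the smallest difference of the group. It read 6.82, 6.89 and 6.58 at E10.5 against 5.84, 5.73 and 5.57 in young adult hearts, a difference of 1.05 (SE 0.141, adjusted p = 1.8e-07).

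The rest of the ring and its partners followed different courses. In E10.5, E19.5 and young adult hearts *Mcm2* had means of 9.86, 7.63 and 6.27, *Mcm4* 9.85, 7.81 and 6.23, *Mcm5* 9.57, 7.57 and 6.23, and *Mcm7* 10.65, 8.89 and 7.42. All 4 kept an E19.5 mean over 1 log2 unit above the adult mean on their brightest probe sets. On the next brightest probe sets the E19.5 difference was 0.74 in *Mcm2*, 1.13 in *Mcm4*, 0.88 in *Mcm5* and 1.50 in *Mcm7*. *Mcm6*, part of the same ring, went from 9.17 to 6.34 at E19.5, next to its young adult mean of 6.30. *Gins1* had 7.03, 5.16 and 3.62. *Gins2* had 7.08, 5.47 and 5.19, and *Cdc45*, which joins the ring to GINS, 6.48, 4.66 and 4.78. *Mcm10*, which helps activate the helicase, had 6.48, 5.80 and 5.20. *Gins4* was below young adult at E17.5 by -0.39 (adjusted p = 0.031, where 17.7% of all genes were lower) and at E18.5 by -0.59 (adjusted p = 0.0012, 17.2%). No other member was lower than young adult at an adjusted p under 0.05 at an embryonic stage, and neither difference passed the test with the actin 3′ to 5′ difference as a covariate (-0.15 and -0.33). The E17.5 difference also did not pass without the E17.5 female, the E17.5 mixed, the young adult male or the young adult mixed array (adjusted p from 0.068 to 0.13).

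The clamp and its loader also followed different courses on their brightest probe sets. *Pcna*, the sliding clamp, read 10.49, 10.79 and 9.99 at E10.5, 7.58, 7.50 and 7.19 at E19.5 and then 7.09, 7.33 and 7.38 in young adult hearts, so that E19.5 and adult overlapped while E10.5 stood apart. *Rfc4*, a subunit of the clamp loader, had the largest difference here. It read 7.77, 7.57 and 7.78 at E10.5, 6.83, 6.27 and 6.55 at E19.5 and then 4.17, 4.80 and 4.46 in young adult hearts. Neither group of *Rfc4* embryonic arrays overlapped the adult arrays, with differences of 3.23 (SE 0.247, adjusted p = 1.5e-12) and 2.08 (adjusted p = 7.2e-08). The other *Rfc4* probe set gave 2.98 at E10.5 but 0.16 (adjusted p = 0.77) at E19.5, so the course of *Rfc4* depended on the probe set. *Rfc2*, the smallest change of this group, read 7.22, 7.28 and 6.81 at E10.5 against 6.22, 6.19 and 6.31, a difference of 0.86 (SE 0.131, adjusted p = 1.5e-06). The loader subunits *Rfc3* and *Rfc5* had means of 6.13 and 6.51 at E10.5, 5.19 and 5.12 on E19.5, and 4.2 and 4.30 in young adult hearts.

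Among polymerases and primase, 3 of 7 were called at E10.5. *Pola1*, the catalytic subunit of the polymerase that starts new strands, read 7.14, 7.18 and 7.31 at E10.5 and 4.12, 3.66 and 4.47 in young adult hearts, a difference of 3.13 (SE 0.230, adjusted p = 5.8e-13). *Pola2*, its partner subunit, read 6.54, 6.92 and 6.49 against 5.40, 5.87 and 5.78, a difference of 0.97 (SE 0.149, adjusted p = 1.9e-06). Both groups of arrays were separate in each gene. *Pole*, the leading-strand polymerase, held its level through most of gestation, with means of 6.93 at E10.5, 6.94 at E15.5 and 6.03 on E19.5 before 4.11 in young adult hearts. Its accessory subunit *Pole2* had 6.53, 4.81, 4.23 and 4.01 at the same stages. *Pold1*, the lagging-strand polymerase, was highest at E14.5 on its brightest probe set, with 8.19, 7.74 and 7.11 in E10.5, E19.5 and young adult hearts. Its other probe set was highest at E10.5, with 6.23, 5.17 and 5.32 at those stages, so the probe sets of *Pold1* disagree. The primase subunits *Prim1* and *Prim2* had 7.89 and 6.85 at E10.5, and 6.10 and 5.28 in young adult hearts.

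For single-strand binding and the joining of Okazaki fragments, *Lig1*, the ligase, changed most. It read 8.59, 8.48 and 8.27 at E10.5, 7.05, 6.96 and 6.97 at E19.5 and then 5.11, 4.65 and 5.22 in young adult hearts. The 3 groups of *Lig1* arrays were separate, and the differences from adult were 3.45 (SE 0.149, adjusted p = 1.7e-18) and 2.00 (adjusted p = 4.6e-12). *Fen1*, the flap nuclease, changed least on its brightest probe set, with 8.92, 8.88 and 9.05 at E10.5 against 7.42, 7.71 and 7.52, a difference of 1.40 (SE 0.159, adjusted p = 8.1e-09). Replication protein A coats single strands. Its subunit *Rpa1* had means of 10.16, 9.53 and 8.65 at E10.5, E19.5 and young adult, and *Rpa2* 7.05, 4.81 and 4.60.

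In nucleotide supply all 5 members were called at E10.5, *Tyms* with a highest stage mean of 5.00, barely above the limit of 5. *Rrm2*, the regulated subunit of ribonucleotide reductase, had the largest difference of all members. It read 10.17, 10.18 and 10.21 at E10.5, 8.82, 8.82 and 8.50 at E19.5, 5.90, 5.10 and 4.54 in young adult hearts, and 4.97, 3.91 and 4.68 in old adult hearts. The difference of *Rrm2* was 5.01 at E10.5 (SE 0.238, 32.2-fold, adjusted p = 1.7e-17) and 3.54 at E19.5 (11.6-fold, adjusted p = 4.7e-13). *Tyms*, thymidylate synthase, had the smallest difference here, reading 5.08, 5.10 and 4.82 at E10.5 against 2.46, 3.17 and 2.22, a difference of 2.39 (SE 0.253, adjusted p = 1.8e-09). Its level was low throughout. *Tk1*, thymidine kinase, had means of 6.99, 5.73 and 3.82 at E10.5, E19.5 and young adult. *Dut*, which removes dUTP, had 8.19, 5.80 and 5.35, and *Rrm1*, the large reductase subunit, 8.32, 6.59 and 5.66.

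**Figure D3:**
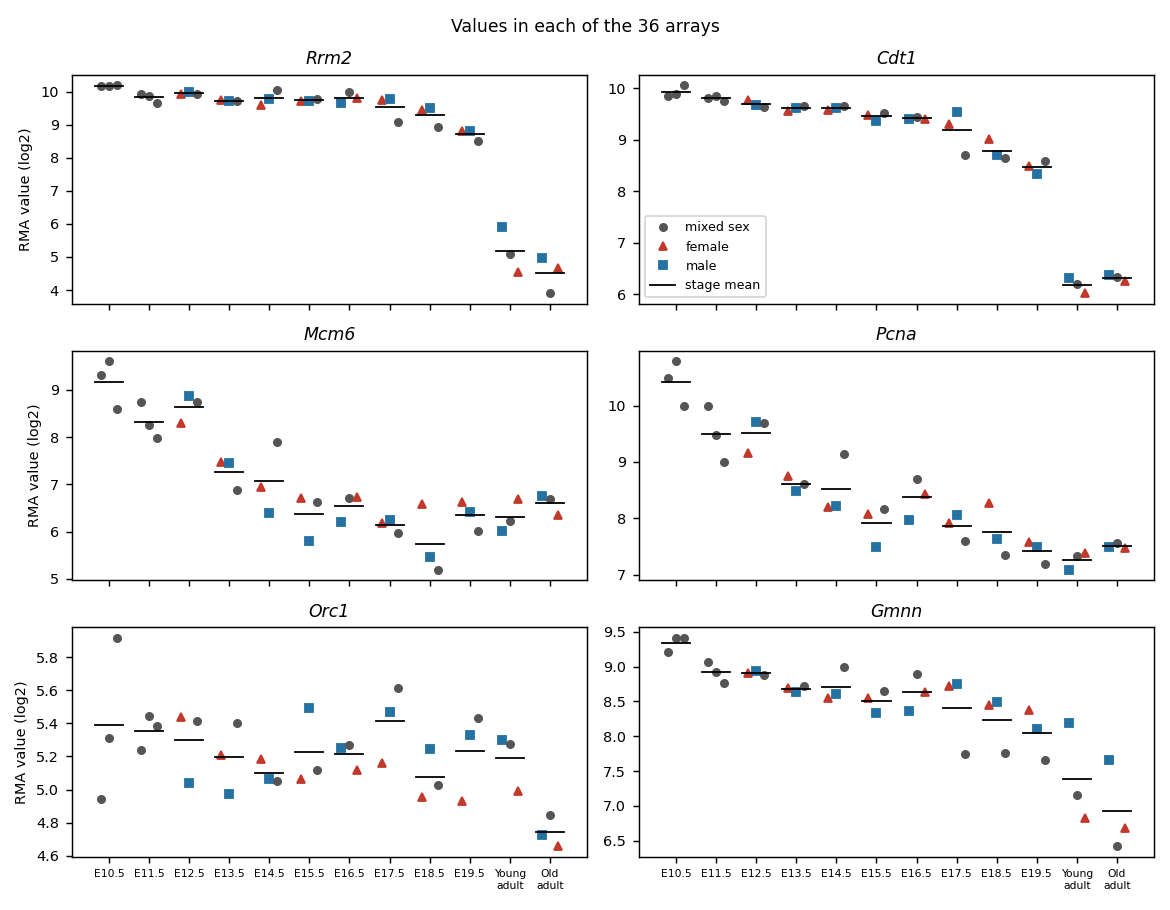
Each point is the log2 RMA value of 1 array and each line a stage mean of 3 arrays, for 6 genes on their own axes. *Rrm2* and *Cdt1* stay high to the last embryonic days and are low in adults, *Mcm6* and *Pcna* reach their adult level within embryonic life, *Orc1* has no called stage, and the male and female arrays of *Gmnn* are 0.98 or more apart in both adult groups, with the male array higher, and at most 0.27 apart in the embryonic pairs.

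*Chaf1b*, a subunit of the factor that places histones on new DNA, read 6.38, 6.38 and 6.52 at E10.5 and 3.78, 4.49 and 4.14 in young adult hearts, a difference of 2.29 (SE 0.170, adjusted p = 8.1e-13). Of the recombination and repair genes that act at stalled forks, 3 of 4 were called at E10.5. *Brca1* read 7.02, 7.22 and 6.63 at E10.5, 5.00, 4.77 and 4.59 at E19.5 and then 3.10, 2.92 and 3.34 in young adult hearts. The *Brca1* groups were separate, with a difference of 3.83 at E10.5 (SE 0.229, adjusted p = 4.3e-15). *Rad51ap1* read 6.88, 6.79 and 6.64 against 5.55, 5.45 and 5.87, a difference of 1.15 (SE 0.255, adjusted p = 3.0e-04), and the old adult arrays spread from 4.75 to 6.68. *Blm*, a helicase, had means of 7.56, 6.12 and 4.58, and *Exo1*, an exonuclease, 5.41, 3.55 and 2.68 at E10.5, E19.5 and young adult.

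The change within embryonic life was tested separately, from E10.5 to E19.5. Under the strict limits 12 members were higher at E10.5 than at E19.5, against 1.52% of all genes, and at an adjusted p under 0.05 41 of 42 were, against 23.6%. The median member difference was 1.47, where that of all genes was -0.16. The largest were *Pcna* with 3.00, *Cdc6* with 2.99, *Mcm3* with 2.94 and *Mcm6* with 2.83. A straight line through the 10 embryonic days had a negative slope in 40 members at an adjusted p under 0.05, against 27.3% of all genes. The median slope was -0.15 per day and the steepest that of *Mcm6*, -0.36 per day. *Orc1* (-0.02) and *Pold1* (-0.02, adjusted p = 0.54) were the members that did not pass, each on its brightest probe set. The strict count was sensitive to the processing, at 7 after renormalizing by quantiles, 5 after centring, 2 with the hybridization control covariate and 1 with the change in title wording from the E16.5 female array on as a block.

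Members differed in how much of the change lay before and after E19.5. For the 27 called at E10.5, the share of the E10.5 to adult difference that was already gone by E19.5 ran from 29.4% in *Rrm2* to 98.6% in *Mcm6*, with a median of 59.8%. *Mcm6*, *Pcna* (95.1%), *Rpa2* (91.7%), *Pole2* (91.2%) and *Cdc6* (90.4%) had the highest shares, and none of these 5 passed the test of E19.5 against young adult. A high share means a small E19.5 difference by its definition, so this test is not a separate result. *Cdc6* was dim at both stages, 2.58 and 2.26, below the array medians of 4.10 to 4.18. *Pole2* was near those medians, with 4.23 and 4.01. *Rrm2*, *Pole* (32.1%), *Rfc4* (35.7%), *Cdt1* (38.9%) and *Tk1* (39.6%) kept most of their difference. At E19.5, 4 members passed the strict limits, *Rrm2*, *Cdt1*, *Rfc4* and *Lig1*, and without the E19.5 female array 2 did, with *Rfc4* at 1.93 and *Lig1* at 1.97. At an adjusted p under 0.05, 29 were higher at E19.5, and none was lower, where 14.7% of all genes were. With the hybridization control covariate 23 were higher and 3 lower.

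**Figure D4:**
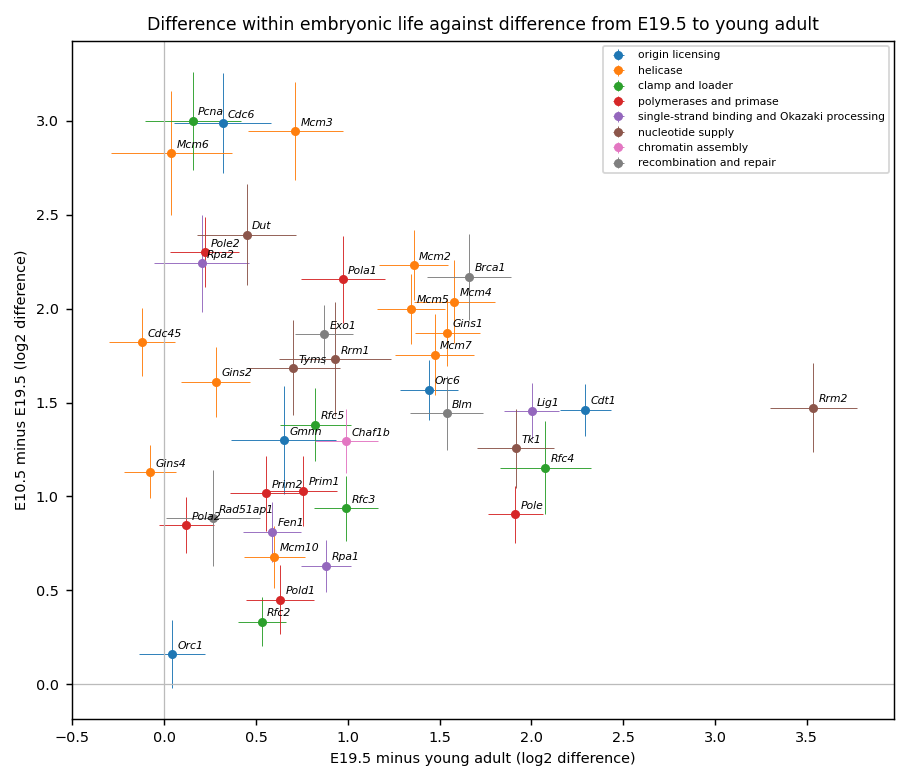
Each point is a gene, with the log2 difference between E19.5 and young adult on the horizontal axis and that between E10.5 and E19.5 on the vertical axis, and bars for 1 SE. Both axes use the E19.5 arrays. *Pcna*, *Cdc6* and *Mcm6* lie at the upper left, *Rrm2* at the far right and *Orc1* near 0 on both.

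This division depended on the probe set, since those of a single gene could fall on either side of it. *Rfc4* differed between E19.5 and young adult by 2.08 on its brightest probe set and by 0.16 (adjusted p = 0.77) on its other, although both gave similar values at E10.5, 3.23 and 2.98. *Cdt1* gave 2.29 and 0.93 at E19.5 with 3.76 and 3.71 at E10.5. *Rrm2* gave 3.54, 2.05 and -0.17 on its 3 probe sets. The probe sets of *Mcm7* gave 1.47, 1.50, 0.60 and 0.30. *Rpa1* gave 0.88 on its brightest probe set and -0.81 (adjusted p = 0.037) on the other, which was thus lower at E19.5 than in adult hearts.

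For 20 members a second probe set had a mean above 5 at some stage, and on it the share gone by E19.5 had a median of 82.2%, against 57.9% on the brightest. The share was larger on the second probe set in 16 of the 20. The brightest probe set was picked by its mean over all arrays, which favours a probe set that stays high at later stages. This contrast is therefore not independent of that choice. *Fen1* also differed in size, with 3.81 at E10.5 on its second probe set against 1.40 on the brightest. The array maker's suffixes x and s mark probe sets whose probes may match other transcripts. The brightest probe set had the suffix x in 5 members, *Fen1*, *Mcm4*, *Mcm5*, *Pold1* and *Rrm2*, and s in 5, *Gins2*, *Mcm2*, *Mcm3*, *Mcm7* and *Rfc4*, so their values may include signal from near-identical sequences.

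The direction from E10.5 to adult was also counted over the 52 other probe sets of the members. E10.5 was higher at an adjusted p under 0.05 on 34 of them, with 16 past the strict limits. Over the brightest probe sets of all genes these shares were 28.5% and 5.14%. No share was counted over the other probe sets of all genes. It was lower in sign on 10, none of which had a mean above 4.93 at any stage. Of these, *Prim2* (-0.61, adjusted p = 0.0060), *Chaf1b* (-0.52, adjusted p = 0.0017), *Gins1* (-0.51, adjusted p = 0.0071) and *Cdt1* (-0.49, adjusted p = 4.1e-04) passed the test at these low intensities. The others were probe sets of *Mcm10* (-0.35), *Rrm1* (-0.25), *Tyms* (-0.15), *Pola2* (-0.07) and *Brca1* (-0.08 and -0.01). A strict call on at least 1 probe set was made for 31 members at E10.5.

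**Figure D5:**
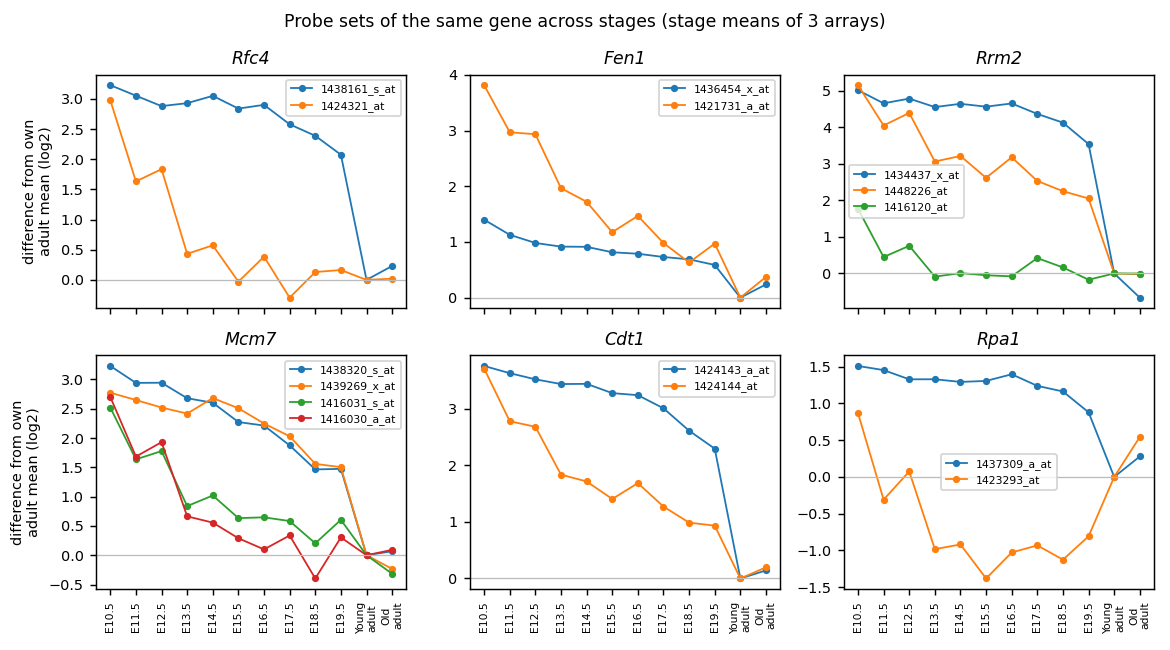
Lines give the stage means of 3 arrays for each probe set with a mean above 5 at some stage, as log2 differences from that probe set's own young adult mean, for 6 genes. In *Rfc4* the probe sets start near 3 and one stays above 2 to E19.5 while the other is at 0.16. In *Rpa1* the second probe set is below its adult level at E11.5 and at every stage between E13.5 and E19.5.

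Few day-to-day steps of single members passed the test, 8 at the first step and 2 at a later one. Between E10.5 and E11.5, 8 members fell at an adjusted p under 0.05, against 1.45% of all genes. They were *Cdc6* (-1.23), *Pcna* (-0.93), *Pole2* (-0.86), *Gins2* (-0.76), *Mcm5* (-0.71), *Exo1* (-0.66), *Pola2* (-0.63) and *Gins4* (-0.59), and 41 of 42 members were lower in sign. Between E12.5 and E13.5, *Mcm6* (-1.37, adjusted p = 0.035) and *Dut* (-1.29, adjusted p = 0.015) fell, against 0.594% of all genes. None of the other steps gave a member: the shares of all genes called lower were 0.0435% from E11.5 to E12.5, 0.0338% to E14.5, 0.0290% to E15.5, 0.00483% to E16.5 and again 0.00483% to E17.5, 0 to E18.5 and 1.15% to E19.5. No member rose at any step in limma at an adjusted p under 0.05 (2.31% of all genes did at 1 or more steps). At an unadjusted p under 0.05, 1 rose at E13.5 and 1 at E19.5, without a count over all genes at that limit.

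The first step gave different counts without single arrays and with the controls as covariates. It gave 0 members without E10.5 mixed 1, without E10.5 mixed 2, without E11.5 mixed 2 or without E11.5 mixed 3, and 14 without E10.5 mixed 3. It gave 1 with the hybridization control level and 0 with the actin 3′ to 5′ difference as a covariate. Both measures also differed between E10.5 and E11.5, with means of 9.90 and 10.43 for the control level and 2.86 and 3.70 for actin. They cannot be fully told apart from stage in these fits. E10.5 mixed 1 and 2 had control levels of 9.68 each, while E10.5 mixed 3 had 10.35, the same as E11.5 mixed 1 and 2.

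Old adult hearts differed from young adult hearts in 3 members at an adjusted p under 0.05, a share of 7.14% next to 7.59% of all genes, and in none under the strict limits. *Blm* read 3.48, 3.28 and 4.46 in old and 4.17, 4.73 and 4.84 in young adult hearts, a difference of -0.84 (SE 0.198, adjusted p = 0.0094) with overlapping arrays. It did not pass without the old male (adjusted p = 0.060) or the old mixed array (adjusted p = 0.077). *Prim1* read 4.98, 5.62 and 5.73 against 6.67, 5.88 and 5.77, a difference of -0.66 (SE 0.185, adjusted p = 0.026), with the groups just apart. It was -0.38 without the young adult male array (adjusted p = 0.22), -0.43 without the old male array (adjusted p = 0.20) and -0.48 with the hybridization control covariate (adjusted p = 0.18). *Exo1* read 2.92, 3.51 and 3.18 against 2.60, 2.54 and 2.89, a difference of 0.53 (SE 0.158, adjusted p = 0.039) at low intensity. The count was 1 without the young adult male array and 1 without the old mixed array. *Exo1* differed by 0.06 (adjusted p = 0.72) on the mean of its probe sets, and did not pass after centring, with the hybridization control covariate, or without the young adult male or mixed or the old mixed or female array. The other 39 members did not pass, and the median over all 42 was 0.08, next to 0.00 over all genes.

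Male and female arrays were compared within 9 stages from E13.5 on, leaving out E12.5 as the study did. No member differed in limma at an adjusted p under 0.05 (0.0435% of all genes did). At an unadjusted p under 0.05, 5 did, all lower in male arrays. The share of all genes at that unadjusted limit was not counted. *Gmnn* differed between ages in its sex difference (0.613% of all genes did). Its male minus female difference was between -0.27 and 0.06 in the 7 embryonic pairs, and 1.38 in young and 0.98 in old adult hearts. The *Gmnn* male arrays read 8.20 and 7.66 there, the female arrays 6.82 and 6.68 and the mixed arrays 7.16 and 6.42. The adult minus embryonic sex difference was 1.28 (SE 0.184, adjusted p = 0.0044), from 2 adult pairs and 7 embryonic ones.

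Other genes of the pathway, taken from 3 lists chosen by function, were mostly higher at E10.5 too. Of 34 further replication factors, 13 were called higher at E10.5, against 5.14% of all genes, and 31 were higher at an adjusted p under 0.05, against 28.5%, with 0 lower and a median difference of 1.44. The largest was *Dna2*, a nuclease that trims flaps, with 4.08 (adjusted p = 4.5e-18), and the smallest *Pold4*, a small polymerase subunit, with -0.34 (adjusted p = 0.077). At E19.5, 15 of the 34 were higher, against 17.0% of all genes, and *Gins3*, a GINS subunit, was lower (-0.75, adjusted p = 7.7e-04). Of 8 chromatin-copying genes all were higher at E10.5 and 7 at E19.5, from *Uhrf1*, which guides maintenance methylation, with 3.92 to *Hells*, a remodeller, with 1.19.

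Nucleotide synthesis and salvage had genes in both directions at E10.5. Of 15, 12 were higher and 2 lower at an adjusted p under 0.05, where 28.5% and 38.6% of all genes were. *Dck*, deoxycytidine kinase, had the largest difference, 4.55 at E10.5 (adjusted p = 3.5e-16) and 2.55 at E19.5. *Samhd1*, which degrades deoxynucleotides, was lower at E10.5 by -0.67 (adjusted p = 0.0032) and at E19.5 by -0.54 (adjusted p = 0.030). *Shmt1*, a folate enzyme, was lower at E10.5 by -0.65 (adjusted p = 0.026).

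Between old and young adult hearts 5 of the 34 replication factors, 2 of the 15 nucleotide genes and 0 of the 8 chromatin-copying genes differed at an adjusted p under 0.05, where 7.59% of all genes did. They are named here after their values were seen. The replication factors were *Rfc1* (-1.87), *Gins3* (-1.12), *Timeless* (0.55), *Clspn* (0.73) and *Mtbp* (0.79), and the nucleotide genes *Shmt1* (-1.32) and *Umps* (0.52).

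Cell types other than muscle also changed over these stages. The 7 erythroid markers averaged 7.81 to 8.44 over the E10.5 arrays and 3.95 to 4.04 in young adult hearts, with embryonic globin *Hbb-y* at 13.60 at E10.5 and 3.10 in adults, and 5 of the 7 were higher at E10.5. At E19.5 they averaged 3.85 to 3.98 and none was higher than in adult hearts. The 5 macrophage markers were all lower at E10.5 and at E19.5, with 4.0 to 4.31, 5.13 to 5.28 and 7.51 to 7.57 at E10.5, E19.5 and young adult. The 6 endothelial markers averaged 5.42 to 6.12 at E10.5 and 7.14 to 7.37 in young adult hearts, with 5 lower, and the 4 lymphocyte markers 3.21 to 3.38 and 4.30 to 4.81. The 6 fibroblast markers ran from 7.34 to 7.64 and from 8.66 to 9.35, 2 higher and 2 lower at E10.5, and the 5 epicardial markers from 5.65 to 6.03 and from 4.68 to 5.32, 2 higher and 1 lower. The part of these shifts in cell makeup in the members' change was not tested.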

How the data were processed

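Heart RNA of 36 samples, 3 per stage, was measured on 1-colour Affymetrix arrays covering the mouse genome. The authors made the deposited log2 intensities by robust multi-array average (RMA). The submitters' processing notes also name Affymetrix Expression Console and Partek 6.6, while the study's methods name R/Bioconductor. The values were used as deposited. Gene IDs came from the deposited annotation, and 6937 probe sets had none. The members, the other gene lists and the tests were chosen with earlier results of these data known.

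All 45101 probe sets were fitted with limma 3.58.1 (R 4.3.3) as 12 stage means (prior degrees of freedom 6.96), with Benjamini-Hochberg adjustment within each comparison. Calls over genes used the 20701 probe sets that were brightest for their gene. The embryonic slope was fitted over the 30 embryonic arrays, and sex within stage. The scripts were tested on simulated data. In each role the members with the largest and smallest E10.5 difference are given by array, as are members called for age, sex or a rise. The replicates were separate samples, of which the mixed ones combine hearts per the study's methods, and their number limits the precision. The E10.5 and E11.5 labels share numbers 1 to 3. The deviations of same-numbered arrays correlated at 0.14, -0.21 and 0.12, so the numbers were not taken as pairs. The alternatives were renormalization by quantiles, median centring, a filter before the model, another variance model, covariates for the hybridization controls and actin, blocks for sex, title wording and replicate number, other limits, other probe sets, and leaving out each array. A further list of recombination genes is not reported here.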

Additional observations from a re-analysis of the deposited data

Results flagged for a closer look

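*Gmnn*, the inhibitor of origin relicensing, had a sex difference that differed between adult and embryonic hearts, by 1.2762 on the log2 scale in the test of the difference itself. The male array was the higher of the pair in both adult groups and in 3 of the 7 embryonic pairs. The value was 1.08 without the young adult pair (adjusted p = 0.011 in limma) and 1.47 without the old adult pair (adjusted p = 0.0025). Other processing moved it between 1.11 and 1.32, with an adjusted p of 0.016 or less. A stage holds a single male and a single female array, so the adult value rests on 4 arrays.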

How the results depend on the processing

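The count of members above young adult at E10.5 (27) was 17 with the hybridization control covariate and 41 at an adjusted p under 0.05 alone. At E19.5 (4) it was 2 after median centring, 1 with the mean of all probe sets, 14 at a log2 limit of 1 and 29 at an adjusted p under 0.05 alone. Between E10.5 and E19.5 (12) it was 7 after quantile renormalization, 5 after centring, 5 with the mean of all probe sets, 2 with the hybridization control covariate, 6 with the actin 3′ to 5′ covariate, which was chosen after seeing the data, 1 with the title prefix block, 26 at a log2 limit of 1 and 41 at an adjusted p under 0.05 alone. The median difference at E10.5 (2.70) was 2.37, 2.17, 1.97 and 1.90 with quantiles, centring, the hybridization control covariate and the mean of all probe sets. At E19.5 (0.79) it was 0.61 with centring, 0.59 with the hybridization control covariate, 0.40 with the mean of all probe sets and 0.95 with the actin covariate. Falls at daily steps (10 in all) were 6 with quantiles, 3 and 0 with the 2 covariates and 18 with the mean of all probe sets. For E11.5 against E10.5 (8) they were 4, 5, 1, 0 and 14 with quantiles, centring, the hybridization control covariate, the actin covariate and the mean of all probe sets, and 8 with the replicate block, an unchanged count. Old adult calls (3) were 0 under the strict limits. The share gone by E19.5 (57.9%) was 82.2% on second probe sets, an alternative also chosen after seeing the data and not independent of how the brightest was picked.

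Leaving out 1 array gave 27 to 30 calls at E10.5, from 2 to 4 in E19.5 hearts (2 without the E19.5 female array), 10 to 12 between them, 1 to 4 for old adult (1 without the young adult male or the old mixed array), 39 to 40 negative slopes and 0 for sex. Falls at daily steps ran from 2 (without E10.5 mixed 1, E10.5 mixed 2 or E11.5 mixed 2; 3 without E11.5 mixed 3) to 18 (without E10.5 mixed 3), those at E11.5 from 0 to 14, and the median differences from 2.56 to 2.79 (E10.5) and 0.75 to 0.86 (E19.5). The *Orc1* difference at E10.5 turned to -0.071 with quantiles, -0.32 with centring and -0.058 without E10.5 mixed 3 (lowest and highest without an array -0.058 and 0.43), and that of *Mcm3* at E19.5 to -0.11 with the hybridization control covariate. The cause of these changes was not tested. Low intensities limit *Tyms*, *Exo1* and *Cdc6* in E19.5 and adult hearts. They also limit other members in young adult hearts, such as *Brca1* (3.12), *Gins1* (3.62), *Tk1* (3.82), *Pole2* (4.01) and *Pola1* (4.08).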
